A study of Mus musculus with 6 samples.

Results

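The 9 genes described here encode secreted factors that make blood vessels grow or change their tone: Vegfa, Vegfb, Vegfc and Pgf of the vascular endothelial growth factor (VEGF) family, Pdgfa and Pdgfb of the platelet-derived growth factor (PDGF) family, the vasodilator adrenomedullin (Adm), the vasoconstrictor endothelin 1 (Edn1) and the angiopoietin-like protein Angptl4. They were chosen by name from 43412 annotated genes, and all 9 were found. Levels were compared between hypoxia-treated GC-2spd cells (1% oxygen, 3 libraries) and normoxic GC-2spd cells (21% oxygen, 3 libraries). GC-2spd is a permanent mouse cell line of testicular origin that is used as a model of male germ cells at the spermatocyte to spermatid stage. The labels give the strain background C57BL/6J and the tissue testis, and both groups grew in DMEM with serum and antibiotics under the same CO2. The labels give no duration of hypoxia. The study states a duration for its hypoxia model, but its transcriptome methods do not repeat it for these libraries. Neither the labels nor the study's methods tie the libraries to separate cultures, so p-values measure the spread between these libraries, which may be technical.

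VEGF-A is the main growth factor for endothelial cells, which line blood vessels, and acts through the receptors Flt1 and Kdr with the neuropilins Nrp1 and Nrp2 as co-receptors. VEGF-B and placental growth factor (Pgf) bind Flt1, and VEGF-C acts mainly on lymphatic vessels. PDGF-A and PDGF-B recruit the cells of the vessel wall through Pdgfra and Pdgfrb, adrenomedullin signals through Calcrl paired with a Ramp protein, and endothelin 1 through Ednra and Ednrb. In cells short of oxygen the stabilised transcription factor HIF (hypoxia-inducible factor) raises transcription of many genes, with Vegfa as the classical example among secreted factors.

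Adm, Vegfa and Vegfb were higher in hypoxia-treated cells, Angptl4 and Pdgfa were lower, and Vegfc, Pgf, Edn1 and Pdgfb did not pass the test. The unit is TPM, the relative abundance of a gene's transcripts corrected for transcript length, and the test was limma on log2(TPM + 1) with Benjamini-Hochberg adjusted p under 0.05. All 9 genes passed the filter of a mean of at least 1 TPM. Of 13749 tested genes 54.0% were called, 17.9% higher and 36.1% lower in hypoxia-treated cells, against 3 higher and 2 lower of the 9. The same 5 genes were those whose groups did not overlap, and over all tested genes 62.4% did not overlap, 21.4% with the hypoxia-treated libraries above and 41.0% with them below. The median log2 fold change of the 9 genes was 0.06, beside -0.13 over all tested genes. That median moved to 0.00 under median-ratio scaling and under quantile normalization, and the calls over all genes moved to 3603 higher and 3622 lower or to 3575 higher and 3639 lower, against 2463 higher and 4967 lower in TPM as deposited. The 5 called members kept call and direction under both scalings.

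**Figure D1:**
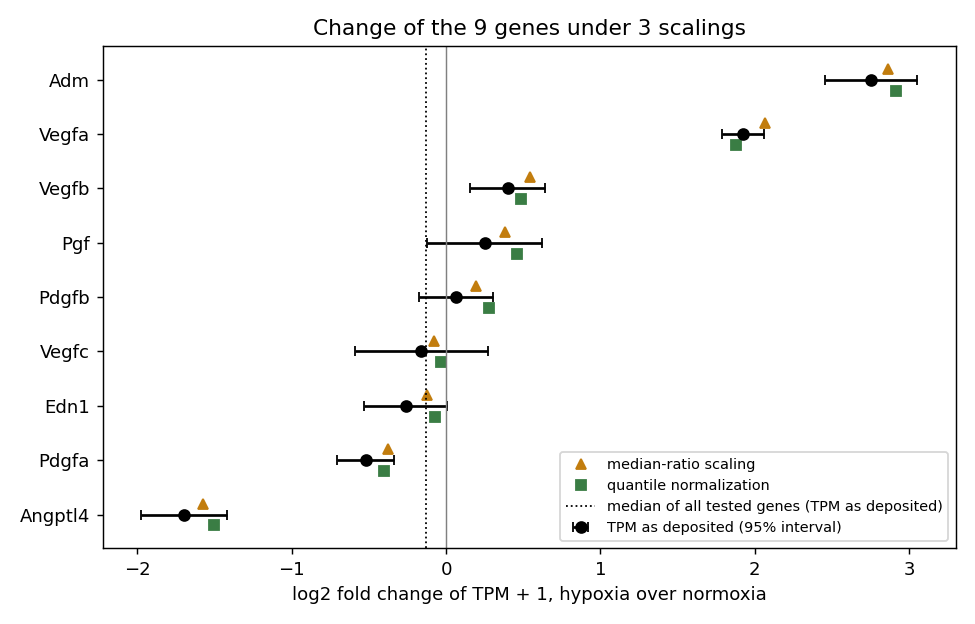
Log2 fold change of TPM + 1, hypoxia-treated over normoxic cells, of the 9 genes (black points with 95% intervals of limma), with the estimates after median-ratio scaling (triangles) and quantile normalization (squares); the dotted line is the median of all tested genes, -0.13. Adm and Vegfa lie far to the right at 2.75 and 1.92, Angptl4 far to the left at -1.70, and the intervals of Pgf, Pdgfb, Vegfc and Edn1 include 0.

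The libraries held between 5.80 and 6.72 gigabases aligned in hypoxia-treated cells and between 5.75 and 6.61 in normoxic cells. Annotated genes summed to less TPM than the loci that StringTie assembled from the reads, by 2.30 to 5.17% in hypoxia-treated cells. The highest shortfall was in hypoxia replicate 1, and normoxic cells had a shortfall of 1.86 to 2.75%. This is a net difference between the listings, which also differ at annotated genes such as Vegfa. As a check of the labels, the oxygen-regulated genes Egln3, Ndrg1 and Pgk1 were all called higher, at 86.6, 573 and 3828 TPM in hypoxia-treated cells and 17.4, 73.6 and 1363 TPM in normoxic cells. Against the line's name, all 17 listed germ cell and spermatid markers stayed under 1 TPM in every library, 8 of them at 0 throughout, and their summed level was 0.230 to 0.751 TPM in hypoxia-treated and 0.890 to 1.31 TPM in normoxic cells. Of the 10 endothelial markers none passed the filter, with Cdh5, Emcn and Cldn5 at 0 in all 6 libraries and Tie1 near 0, and their summed level was 0.654 to 2.92 TPM in hypoxia-treated and 1.23 to 2.50 TPM in normoxic cells. The 10 fibroblast and myoid markers, which include Pdgfra and Pdgfrb, summed to 6856 to 7070 TPM in hypoxia-treated and 3306 to 4265 TPM in normoxic cells, mostly from Vim, Col1a1 and Col1a2, while Thy1 was at 0 in all 6 libraries and Myh11 near 0. The 9 Sertoli markers summed to 219 to 254 TPM in hypoxia-treated and 264 to 317 TPM in normoxic cells, mostly from Clu and then Gata4. Of these 9 markers 5 stayed under 1 TPM in every library, with Fshr at 0 in all 6. The 6 Leydig markers summed to 7.17 to 10.6 TPM in hypoxia-treated and 3.61 to 6.88 TPM in normoxic cells. For the 6 macrophage markers the sums were 20.1 to 21.6 TPM in hypoxia-treated and 25.0 to 28.2 TPM in normoxic cells. In each of these lists 3 markers stayed under 1 TPM in every library. The part of these cell type markers in the results was not tested. As the RNA is from bulk cultures, fewer cells making a transcript and less of it per cell cannot be told apart.

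The 250 bases before the RefSeq start site (GRCm38.p6) are shown for the genes that were higher in hypoxia-treated cells, and for Pgf as a VEGF family member that was not called. Capitals mark GC boxes (GGGCGG, or CCGCCC on the other strand) and TATA motifs (TATAA, or TTATA on the other strand). The windows are chr17:46032378-46032627 (minus strand), chr7:110627407-110627656 (plus strand), chr19:6987652-6987901 (minus strand) and chr12:85177314-85177563 (minus strand), each printed 5′ to 3′ along its gene.
Vegfa: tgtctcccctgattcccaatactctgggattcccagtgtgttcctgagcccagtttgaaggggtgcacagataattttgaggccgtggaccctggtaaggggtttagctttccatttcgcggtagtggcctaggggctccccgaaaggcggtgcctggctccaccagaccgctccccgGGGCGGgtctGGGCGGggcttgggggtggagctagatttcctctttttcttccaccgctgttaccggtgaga
Adm: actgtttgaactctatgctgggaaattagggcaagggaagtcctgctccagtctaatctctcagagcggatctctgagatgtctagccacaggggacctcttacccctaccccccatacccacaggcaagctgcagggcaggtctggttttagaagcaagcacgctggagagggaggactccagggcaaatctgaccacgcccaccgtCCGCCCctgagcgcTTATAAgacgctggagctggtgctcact
Vegfb: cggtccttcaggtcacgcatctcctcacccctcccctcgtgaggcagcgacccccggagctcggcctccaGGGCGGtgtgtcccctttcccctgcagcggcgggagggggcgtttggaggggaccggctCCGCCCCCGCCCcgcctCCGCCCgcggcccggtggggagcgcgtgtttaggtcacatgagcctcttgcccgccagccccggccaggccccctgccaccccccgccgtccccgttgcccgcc
Pgf: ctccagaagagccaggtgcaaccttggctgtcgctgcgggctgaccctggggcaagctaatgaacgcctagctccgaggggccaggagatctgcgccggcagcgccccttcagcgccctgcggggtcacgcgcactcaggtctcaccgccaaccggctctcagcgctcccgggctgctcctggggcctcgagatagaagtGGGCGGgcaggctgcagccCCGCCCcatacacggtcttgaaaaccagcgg
The Vegfa window held 2 GC boxes, which began 72 and 62 bases before the start, and no TATA motif. The Adm window held 1 GC box, 42 bases before the start, and a TTATAA 28 bases before it, in which TATAA and TTATA overlap. The Vegfb window was the richest in G and C at 76.4% and held 4 GC boxes, and the Pgf window held 2. None of these 4 windows held the HIF core letters ACGTG or CACGT, which says only that the letters are not in these 250 bases. A second Vegfa start, 7214 bases inside the gene, had 1 such match in its window. Of all 32851 windows of the same length 32.7% held a GC box, 22.8% a TATA motif and 16.6% ACGTG or its reverse. Of the 9 genes 7 had an entry in the promoter table.

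Vegfa was the most abundant of the 9 genes in every library. It had 552, 606 and 636 TPM in hypoxia-treated cells, against 157, 153 and 160 TPM in normoxic cells. The groups stood far apart, with means of 598 ± 42.7 TPM in hypoxia-treated and 157 ± 3.35 TPM in normoxic cells (SD, n = 3 each), a ratio of 3.81. The log2 fold change was 1.92 (SE 0.06, 95% interval 1.79 to 2.06, limma adjusted p = 2.30e-06), which ranked Vegfa 35 from the top of 13749 tested genes. Vegfa lies on the minus strand of chr17:46016993-46032377 (mm10, ENSMUSG00000023951). In hypoxia replicate 1 the locus that StringTie assembled there from the reads had 653 TPM and the annotated part 552 TPM, and in normoxia replicate 1 they had 184 and 157 TPM. In the other 4 libraries they differed by less than 5 TPM.

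Vegfb (chr19:6982473-6987651, minus strand), which is linked in mouse to fatty acid uptake and heart muscle more than to vessel growth, was also called higher. It had 80.3, 78.7 and 102 TPM in hypoxia-treated cells, against 62.9, 66.9 and 66.1 TPM in normoxic cells. The groups did not overlap, and hypoxia replicate 3 was well above the other two. The log2 fold change was 0.40 (SE 0.10, limma adjusted p = 0.0143). With the assembled locus in place of the annotated part the fold change was 0.31 and missed the threshold (limma adjusted p = 0.0887), with 82.9 TPM in normoxia replicate 2.

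Pgf (chr12:85166639-85177296, minus strand) had 8.73, 12.4 and 13.2 TPM in hypoxia-treated cells, against 8.29, 9.47 and 10.3 TPM in normoxic cells. Hypoxia replicate 1 lay within the normoxic range and the other two above it. The log2 fold change was 0.25 (95% interval -0.12 to 0.62, limma adjusted p = 0.218). Without hypoxia replicate 1 it was 0.42 and past the threshold (limma adjusted p = 0.0237), as it was after quantile normalization at 0.46 (limma adjusted p = 0.0393). Vegfc (chr8:54077532-54186454, plus strand) was close to the filter, with 1.35, 0.815 and 1.04 TPM in hypoxia-treated cells, against 0.950, 1.46 and 1.53 TPM in normoxic cells. These groups overlapped, and the log2 fold change of Vegfc was -0.16 (95% interval -0.59 to 0.27, limma adjusted p = 0.490). The fifth ligand of the family, Vegfd, had 6.46 ± 1.23 TPM in hypoxia-treated and 5.81 ± 0.578 TPM in normoxic cells (SD, n = 3 each) and was not called (limma adjusted p = 0.489).

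Summed over the 5 VEGF ligand genes, the level was 650, 704 and 758 TPM in hypoxia-treated cells, against 235, 237 and 243 TPM in normoxic cells. Vegfa made up 83.9 to 86.1% of the sum in hypoxia-treated cells and 64.8 to 66.6% in normoxic cells. The log2 ratio of Vegfa to Vegfb was 2.77 ± 0.15 in hypoxia-treated and 1.25 ± 0.06 in normoxic cells (SD, n = 3 each), a difference of 1.52. The differences for Vegfa to Vegfc and Vegfa to Pgf were 2.08 and 1.67. Together with Pdgfa to Pdgfb, 4 ratios were compared by a 2-sided exact permutation test, and each gave p = 0.1, also after adjustment, which is the smallest that 3 libraries against 3 allow.

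**Figure D2:**
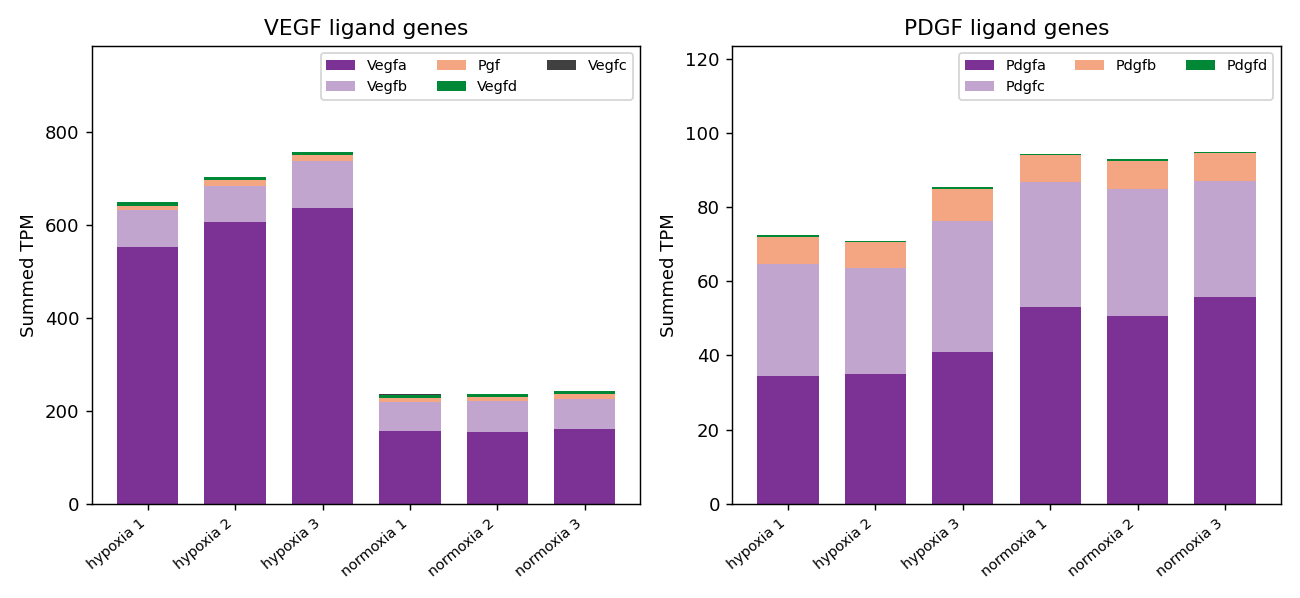
Summed TPM per library of the VEGF ligand genes (left) and the PDGF ligand genes (right), with hypoxia-treated libraries left of normoxic libraries and each colour 1 gene. In the left panel the Vegfa segment is 552 to 636 TPM in hypoxia-treated and 153 to 160 TPM in normoxic cells and the Vegfb segment 78.7 to 102 TPM in hypoxia-treated and 62.9 to 66.9 TPM in normoxic cells. In the right panel the Pdgfa segment is smaller in hypoxia-treated cells (34.5 to 40.8 TPM in hypoxia-treated and 50.6 to 55.7 TPM in normoxic cells).

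The VEGF co-receptor Nrp1 was lower, at 15.9 ± 0.801 TPM in hypoxia-treated and 30.1 ± 2.11 TPM in normoxic cells (SD, n = 3 each, log2 fold change -0.88, limma adjusted p = 0.000115). Its relative Nrp2 had 87.9 ± 6.61 TPM in hypoxia-treated and 78.5 ± 7.65 TPM in normoxic cells and did not pass (log2 fold change 0.16, limma adjusted p = 0.159), though under median-ratio scaling it did (0.31, limma adjusted p = 0.0219). The signalling receptors of the VEGF ligands did not pass the filter. Flt1 had 0.848, 1.27 and 0.361 TPM in hypoxia-treated cells, against 0.174, 0.190 and 0.186 TPM in normoxic cells. Kdr stayed under 0.24 TPM in every library and Flt4 reached 0.510 TPM at most.

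Adm, on the plus strand of chr7:110627661-110629820 (ENSMUSG00000030790), had the largest fold change of the 9 genes. It had 16.7, 16.6 and 15.7 TPM in hypoxia-treated cells, against 1.17, 1.78 and 1.81 TPM in normoxic cells. The means were 16.3 ± 0.577 TPM in hypoxia-treated and 1.59 ± 0.360 TPM in normoxic cells (SD, n = 3 each), a ratio of 10.3. The log2 fold change was 2.75 (SE 0.12, limma adjusted p = 1.13e-05), rank 7 from the top, and since a pseudocount of 1 was added it understates the change of a gene near 1 TPM. With a pseudocount of 0.1 it was 3.31. The annotated antisense gene Gm28863 across Adm reached 0.371 TPM at most.

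The other hormone of the Adm family among the tested genes, Adm2 (intermedin), was higher as well, at 11.7 ± 0.894 TPM in hypoxia-treated and 2.81 ± 0.497 TPM in normoxic cells (SD, n = 3 each, log2 fold change 1.74, limma adjusted p = 5.77e-05). Adm and Adm2 together had 27.7 to 28.3 TPM in hypoxia-treated and 3.53 to 5.12 TPM in normoxic cells. Of the partners of the adrenomedullin receptor, Ramp3 was higher (40.4 ± 2.13 TPM in hypoxia-treated and 25.4 ± 1.86 TPM in normoxic cells, log2 fold change 0.65, limma adjusted p = 0.000395) and Ramp2 lower (24.0 ± 0.103 TPM in hypoxia-treated and 35.5 ± 0.951 TPM in normoxic cells, log2 fold change -0.55, limma adjusted p = 0.000178). Ramp2 shares positions on the same strand with Vps25, which had 62.9 TPM in hypoxia-treated and 89.5 TPM in normoxic cells, so its level is uncertain. The receptor Calcrl itself had 0.229 to 0.544 TPM in hypoxia-treated and 0.354 to 0.515 TPM in normoxic cells, and Ramp1 at most 0.0871 TPM. Pam, the enzyme that gives adrenomedullin its amidated end, was lower, at 25.2 ± 1.15 TPM in hypoxia-treated and 68.0 ± 3.24 TPM in normoxic cells (log2 fold change -1.40, limma adjusted p = 9.53e-06). The pseudogene Gm3531 inside Pam had 30.5 TPM in hypoxia-treated and 31.4 TPM in normoxic cells.

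Edn1 had 17.0, 13.1 and 15.4 TPM in hypoxia-treated cells, against 20.0, 18.4 and 16.6 TPM in normoxic cells. The groups overlapped by hypoxia replicate 1 only. The log2 fold change was -0.26 (95% interval -0.53 to 0.01) and missed the threshold (limma adjusted p = 0.0888), while without hypoxia replicate 1 it was -0.34 (limma adjusted p = 0.0482). Relative to the median of all genes the change of Edn1 was -0.13. The converting enzyme Ece1, which cuts big endothelin to the active peptide, was lower (26.1 ± 1.09 TPM in hypoxia-treated and 44.9 ± 2.93 TPM in normoxic cells, log2 fold change -0.76, limma adjusted p = 0.000141), and Mme (neprilysin), which degrades endothelin, had 0.342 ± 0.0641 TPM in hypoxia-treated and 3.43 ± 0.991 TPM in normoxic cells and was lower too (log2 fold change -1.70, limma adjusted p = 0.00039). The pseudocount of 1 understates the change of Mme, whose mean TPM was 10.1 times as high in normoxic cells. Mme passed the filter of a mean of at least 1 TPM only through its normoxic libraries. Both endothelin receptor genes, Ednra and Ednrb, were listed at 0 in all 6 libraries, and so was Edn3.

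Angptl4 (chr17:33773750-33781575, minus strand, ENSMUSG00000002289), an inhibitor of lipoprotein lipase that also acts on vessels, was the member that fell most. It had 2.89, 2.47 and 2.40 TPM in hypoxia-treated cells, against 11.02, 9.30 and 11.6 TPM in normoxic cells. The mean was 2.59 ± 0.269 TPM in hypoxia-treated and 10.7 ± 1.21 TPM in normoxic cells (SD, n = 3 each), 4.12 times as high in normoxic cells. The log2 fold change was -1.70 (SE 0.12, limma adjusted p = 5.01e-05), rank 127 from the bottom of 13749. Its family member Angptl6 changed in the other direction, with 12.4 ± 0.541 TPM in hypoxia-treated and 3.16 ± 0.747 TPM in normoxic cells (log2 fold change 1.70, limma adjusted p = 0.00013). The gene A230050P20Rik overlaps Angptl6 on the other strand, at 3.86 TPM in hypoxia-treated and 4.36 TPM in normoxic cells. Angptl2 was slightly lower (19.0 ± 0.622 TPM in hypoxia-treated and 22.3 ± 1.23 TPM in normoxic cells, log2 fold change -0.22, limma adjusted p = 0.0265), and this call was lost under both scalings (limma adjusted p = 0.293 and 0.539) and without either of hypoxia replicates 1 and 3 or either of normoxia replicates 1 and 3 (limma adjusted p of 0.0632 to 0.0841). Lpl, the lipase that Angptl4 inhibits, had 7.23 ± 0.688 TPM in hypoxia-treated and 6.77 ± 0.799 TPM in normoxic cells and was not called (limma adjusted p = 0.555).

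**Figure D3:**
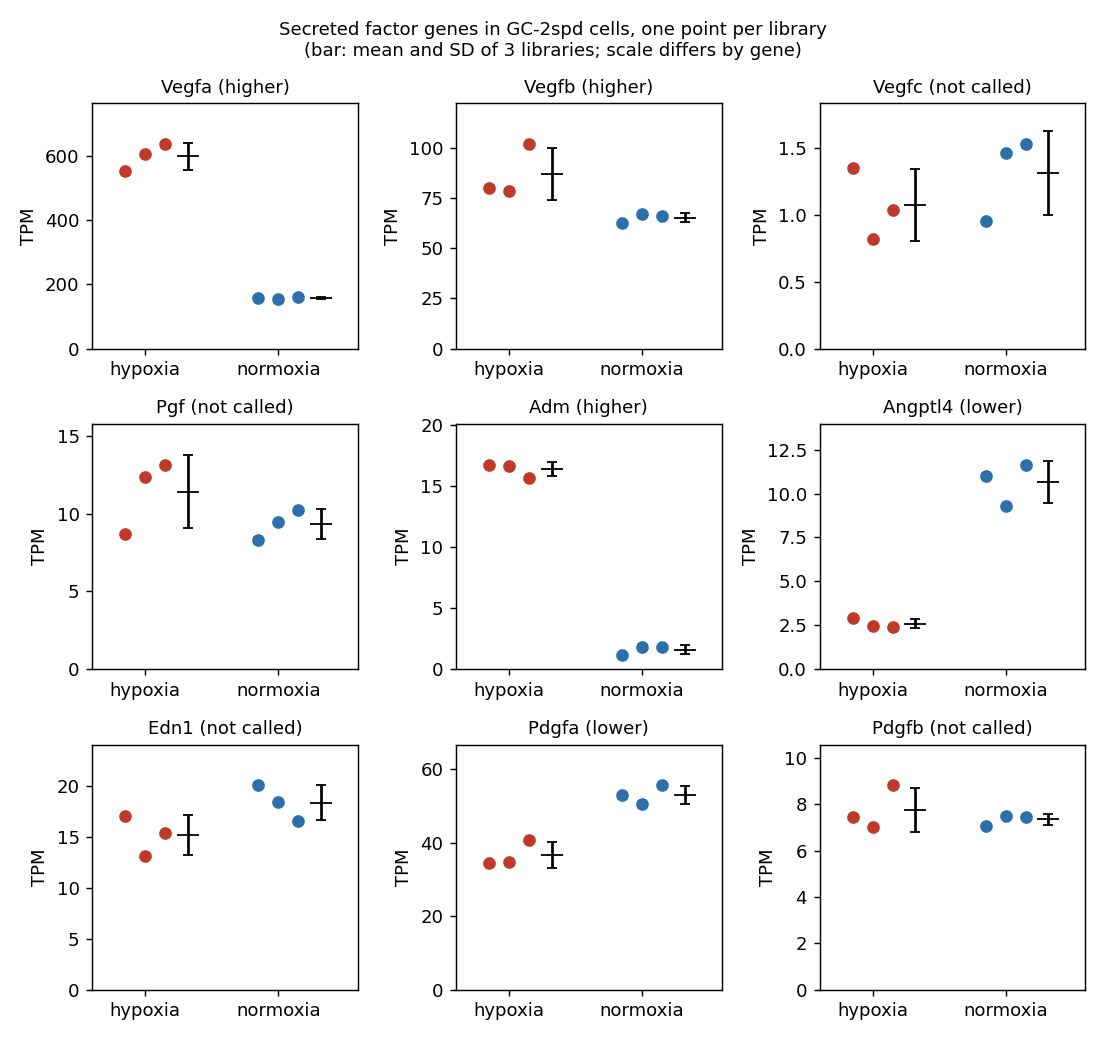
TPM of each of the 9 genes in the 3 hypoxia-treated (red) and 3 normoxic (blue) libraries, with the mean and SD beside the points and a scale of its own for each gene. The groups are clear of each other for Vegfa, Vegfb, Adm, Angptl4 and Pdgfa, with Adm at 15.7 to 16.7 TPM in hypoxia-treated and 1.17 to 1.81 TPM in normoxic cells and Angptl4 at 2.40 to 2.89 TPM in hypoxia-treated and 9.30 to 11.6 TPM in normoxic cells, and they overlap for the other 4 genes.

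Pdgfa (chr5:138976014-138997370, minus strand, ENSMUSG00000025856) had 34.5, 34.9 and 40.8 TPM in hypoxia-treated cells, against 53.0, 50.6 and 55.7 TPM in normoxic cells. The groups did not overlap, and the log2 fold change was -0.52 (SE 0.08, limma adjusted p = 0.00148), or -0.39 relative to the median of all genes. The antisense gene 6330403L08Rik overlaps Pdgfa and had 1.57 TPM in hypoxia-treated and 3.11 TPM in normoxic cells, and the strand setting of the counting is not given in the sources used here, so reads of the pair cannot be told apart. Pdgfb (chr15:79995900-80014808, minus strand) had 7.44, 7.03 and 8.82 TPM in hypoxia-treated cells, against 7.08, 7.505 and 7.48 TPM in normoxic cells. The normoxic values lay inside the hypoxic range, with a log2 fold change of 0.06 (limma adjusted p = 0.615). After quantile normalization the fold change of Pdgfb was 0.28 (limma adjusted p = 0.0463), and without hypoxia replicate 3 it was -0.021.

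With Pdgfc and Pdgfd added, the PDGF ligand genes summed to 72.4, 71.0 and 85.3 TPM in hypoxia-treated cells, against 94.4, 92.9 and 94.99 TPM in normoxic cells. After median-ratio scaling the sums were 77.3, 74.6 and 87.5 TPM in hypoxia-treated and 88.3, 89.3 and 89.6 TPM in normoxic cells. The groups still did not overlap, and only hypoxia replicate 3 came close to the normoxic libraries. Pdgfa made up 47.7 to 49.2% of the sum in hypoxia-treated cells and 54.5 to 58.6% in normoxic cells. A constant factor per library, as in median-ratio scaling, does not move this share, but quantile normalization is not such a factor. The log2 ratio of Pdgfa to Pdgfb was 2.11 ± 0.05 in hypoxia-treated and 2.69 ± 0.08 in normoxic cells (SD, n = 3 each, difference -0.59, exact permutation p = 0.1). Pdgfc had 31.4 ± 3.48 TPM in hypoxia-treated and 33.2 ± 1.55 TPM in normoxic cells and was not called (limma adjusted p = 0.437).

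The PDGF receptors were among the receptor genes that were lower. Pdgfrb had 1.45 ± 0.185 TPM in hypoxia-treated and 6.62 ± 0.207 TPM in normoxic cells (SD, n = 3 each, log2 fold change -1.64, limma adjusted p = 4.58e-05), and Pdgfra 1.54 ± 0.218 TPM in hypoxia-treated and 5.02 ± 0.773 TPM in normoxic cells (log2 fold change -1.24, limma adjusted p = 0.000433). At such levels the pseudocount of 1 understates the change, as mean TPM was 4.56 times (Pdgfrb) and 3.26 times (Pdgfra) as high in normoxic cells. Pdgfrl, a receptor-like protein without a kinase domain, had 3.56 ± 1.18 TPM in hypoxia-treated and 6.33 ± 0.888 TPM in normoxic cells (log2 fold change -0.71, limma adjusted p = 0.0266), a call that was lost without normoxia replicate 2 or 3 (limma adjusted p = 0.0824 and 0.058), under both scalings (limma adjusted p = 0.0557 and 0.0916) and with no filter on low values (limma adjusted p = 0.0749). Of the 15 receptors and co-receptors of the 9 ligands 7 were tested, of which 1 was higher and 5 were lower, with a median log2 fold change of -0.71, beside 17.9% higher, 36.1% lower and a median of -0.13 over all tested genes. These counts leave out the receptors under the filter. Among those, Flt1, Flt4 and Ackr3 had all hypoxia-treated libraries above the normoxic ones, at means under 1 TPM. Ackr3 had 0.736 TPM in hypoxia-treated and 0.404 TPM in normoxic cells. The other untested receptors overlapped or were at 0 throughout.

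**Figure D4:**
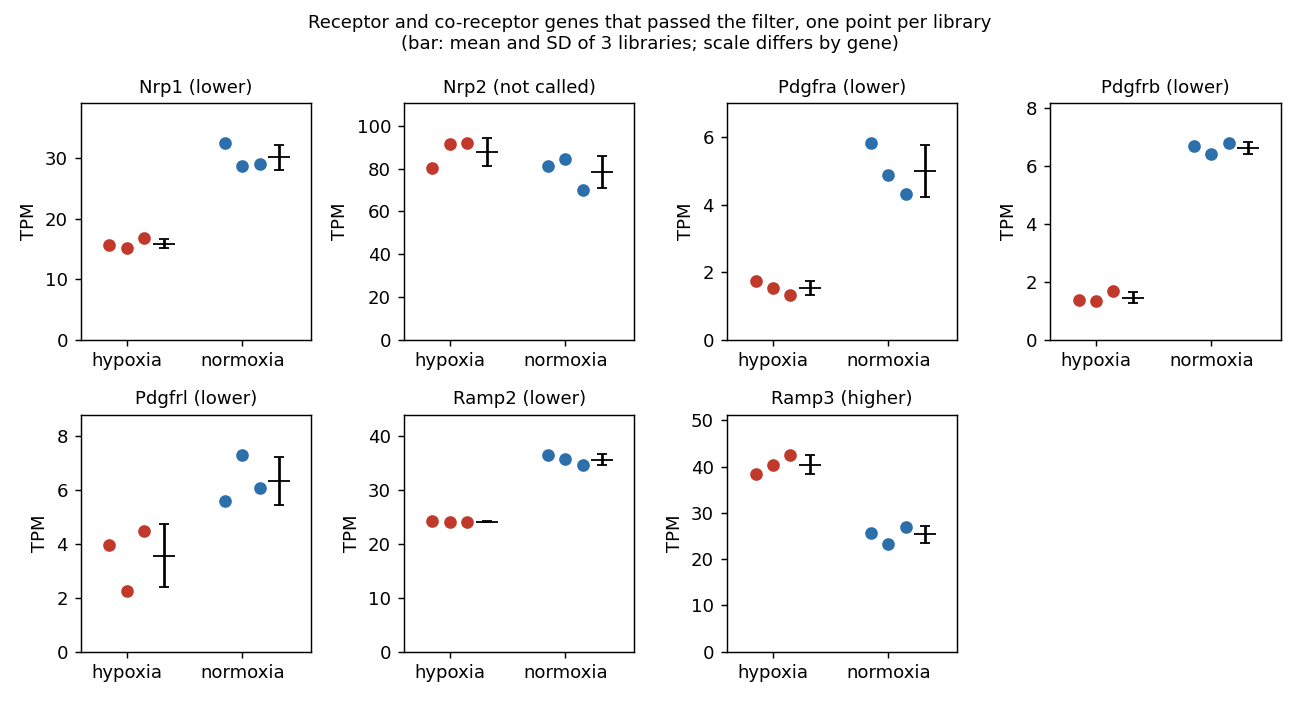
TPM of the 7 tested receptor and co-receptor genes in the 3 hypoxia-treated (red) and 3 normoxic (blue) libraries, with mean and SD, on a scale of its own for each gene. Ramp3 is the gene called higher (on average 40.4 TPM in hypoxia-treated and 25.4 TPM in normoxic cells), Nrp2 overlaps between groups, and the other 5 are lower, with Pdgfrb at 1.45 TPM in hypoxia-treated and 6.62 TPM in normoxic cells.

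By level, the order in hypoxia-treated cells was Vegfa, Vegfb, Pdgfa, Adm, Edn1, Pgf, Pdgfb, Angptl4 and Vegfc. The neighbours Adm and Edn1, Edn1 and Pgf, and Pgf and Pdgfb overlapped between libraries there, and all other neighbours were apart. In normoxic cells the order was Vegfa, Vegfb, Pdgfa, Edn1, Angptl4, Pgf, Pdgfb, Adm and Vegfc, where Angptl4 overlapped Pgf and Adm overlapped Vegfc. Adm thus stood at place 4 in hypoxia-treated and place 8 in normoxic cells, and Angptl4 at place 8 in hypoxia-treated and place 5 in normoxic cells. The 9 genes summed to 721 to 835 TPM in hypoxia-treated and 319 to 331 TPM in normoxic cells, and Vegfa made up 76.1 to 78.5% of the sum in hypoxia-treated and 48.1 to 48.8% in normoxic cells.

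Of 18 genes for processing, activation or clearance of these ligands 12 were tested, and limma called 0 higher, also at an unadjusted p under 0.05, and 9 lower (median log2 fold change -0.45). Over all tested genes, with which this and the following lists are to be read, 17.9% were higher and 36.1% lower with a median of -0.13. After quantile normalization 1 was called higher. Besides Pam, Ece1 and Mme the lower ones included Ece2, Pcsk7, Cpe, Plat and Plau, and Furin, Lmf1 and Lpl were not called. Of 14 further ligands of the same families 5 were tested, with 2 higher (Adm2 and Angptl6) and 1 lower (Angptl2), median 0.12. Of 32 other angiogenic factors 19 were tested, with 4 higher and 8 lower, median -0.14, and the list also holds intracellular enzymes such as Hmox1. Apln, the peptide apelin that makes vessels grow and widen, had 86.5 ± 2.96 TPM in hypoxia-treated and 13.7 ± 0.172 TPM in normoxic cells (log2 fold change 2.57, limma adjusted p = 1.12e-06). Also higher were Ccn2 (connective tissue growth factor, log2 fold change 0.98) and Hmox1 (heme oxygenase, 0.82), while Fgf7 (a growth factor for epithelia, -2.19), Egfl7 (-1.02, a gene that overlaps Agpat2 and Gm20532) and Tgfb3 (-0.69) were lower. Of 20 inhibitors of angiogenesis 15 were tested, with 4 higher and 6 lower, median -0.06. Thbs1 (thrombospondin 1, log2 fold change 0.69), Adamts1 (a protease that binds VEGF, 0.77) and Sema3e (0.50) were higher, and the chemokine Cxcl10 (-3.72), the protease inhibitor Timp2 (-0.56) and Vash2 (-0.96), which is known to favour vessel growth despite the list's name, were lower.

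Over the 6 libraries, the genes whose centred log2(TPM + 1) profile lay nearest to that of Vegfa among 10921 compared were Prkab2 (root mean square distance 0.0572), Prelid2 (0.0627), Gm37123, Bsg and Aldoc. Nearest to Adm were Apln (0.149), Car9, Ndrg1, Abhd18 and Ankrd37, and nearest to Edn1 were Ap5s1 (0.0396), Magt1, Gm6485, Chpt1 and Ahctf1. With 2 groups, such a distance mostly compares the size of the change between them.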

How the data were processed

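Poly(A) RNA of 6 GC-2spd libraries was sequenced in pairs; per the labels the authors used Cutadapt, HISAT2 (mm10) and StringTie, with versions, annotation release and strand setting not given in the sources used here. The deposited columns are coverage (used for depth), FPKM and TPM per gene, the last listing annotated genes (sum 948283.6 to 981417.5) beside loci assembled from reads (sum 1000000), so the deposited TPM was handled as a signal of annotated genes, without rescaling. No counts were used, so the authors' count test was replaced by limma 3.58.1 in R 4.3.3 (empirical Bayes with trend, 2-sided, log2(TPM + 1), mean of at least 1 TPM, Benjamini-Hochberg over 13749 genes, threshold 0.05), which was tested on simulated data. The simulation changed only a small part of the genes and shifted no whole library, so it cannot show which scaling is right. Of 43432 gene IDs 42462 matched a GENCODE release M21 symbol; TPM was summed per symbol. No counting interval could be given; 3 libraries per group limit precision.

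The members and gene lists were chosen with earlier results of these data known. Named were all members, tested receptors, up to 3 called genes per list and direction by adjusted p, 3 label check genes and the 5 nearest profiles to Vegfa, Adm and Edn1; other genes were named after their values were seen. A gene that this rule names is not reported here. Alternatives were another pseudocount, filters, scalings, FPKM, no trend, no mitochondrially encoded genes, a replicate block and leaving out each library; the assembled locus was added after seeing the data. Promoter sequences are from RefSeq (GRCm38.p6).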

Additional observations from a re-analysis of the deposited data

How the results depend on the processing

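Under every alternative run, Vegfa, Adm, Angptl4 and Pdgfa kept call and direction, with log2 fold changes of 1.86 to 2.07, 2.17 to 3.31, -1.999 to -1.40 and -0.60 to -0.38. Vegfc (-0.28 to -0.03) did so under the 14 in which it was tested, as it was below the filter on FPKM and at a mean of 5 TPM. The assembled locus was used only for members with exactly 1 such locus in every library. Angptl4 and Vegfc had none or several in some libraries, so that alternative left their values as they were and could not change their calls. Of 44 other named genes 36 kept theirs. Quantile normalization gave 5 members higher (Pgf 0.46, Pdgfb 0.28) and 1 processing gene higher; the assembled locus gave Vegfb 0.31. Median-ratio scaling gave 2 receptors and 7 other angiogenic factors higher. No further ligand was lower (0) under either scaling or the replicate block, and with a filter at a mean of 5 TPM, which tests fewer genes, 2 receptors were lower. Leaving out 1 library gave ranges of 0.15 to 0.42 for Pgf, -0.34 to -0.17 for Edn1 and -0.021 to 0.12 for Pdgfb (reversed at -0.021 without hypoxia replicate 3), and 0 to 1 further ligands lower. Beyond what each alternative changes by its construction, the cause was not tested. The labels tie same-numbered libraries to each other by the number only. Their deviations correlated at 0.03, 0.03 and 0.01. Hypoxia replicates 1 and 2 correlated best with the normoxia replicate of the same number, and hypoxia replicate 3 with normoxia replicate 1. Correlations this small cannot show whether same-numbered libraries shared a batch. The replicate block gave 2281 genes higher and 4674 lower, 1 processing gene higher, changed no call on the members and lost those of Angptl2 and Pdgfrl (limma adjusted p = 0.0684 and 0.056). The files hold no read counts, so the precision of low levels such as Vegfc is unknown.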

Other observations

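Erythropoietin (Epo), the hormone that drives red blood cell formation and a well-known HIF target in kidney, was listed at 25.7, 23.6 and 21.6 TPM in hypoxia-treated cells, against 21.7, 22.0 and 21.8 TPM in normoxic cells, and was not called (log2 fold change 0.11, limma adjusted p = 0.262). It passed the threshold at 0.25 with median-ratio scaling (limma adjusted p = 0.0439) and 0.28 with quantile normalization (limma adjusted p = 0.0272). Its annotated span overlaps Gnb2 (266 TPM in hypoxia-treated and 229 TPM in normoxic cells) and Pop7 (12.6 TPM in hypoxia-treated and 23.7 TPM in normoxic cells) on the same strand and Gigyf1 (47.4 TPM in hypoxia-treated and 28.2 TPM in normoxic cells) on the other, so whether these values count Epo transcripts was not tested. The gene was singled out after its values were seen.

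Apela, a second ligand of the apelin receptor, had 0.0131, 0.0116 and 0 TPM in hypoxia-treated cells, against 2.05, 2.57 and 1.15 TPM in normoxic cells. Its mean over the 6 libraries was under the filter, so it was not tested, and it was named after its values were seen.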
